A study of Mus musculus with 6 samples.

Results

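The 10 genes described here are feedback inhibitors of ERK signalling: the ERK phosphatases Dusp4, Dusp5, Dusp6 and Dusp7, the Sprouty genes Spry1, Spry2 and Spry4, and the Spred genes Spred1, Spred2 and Spred3. A probe set was taken where the probe annotation gave it the symbol of 1 of these genes and no other, which gave 114 of the 1195555 probe sets on the array. All 10 genes were among the 16524 genes that could be tested, out of 22071 with a probe set of their own. The group was chosen by name at a time when its differences between Cugbp1 shRNA and control cultures were already known, so these differences are described and not tested.

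RNA was profiled on 6 Affymetrix exon microarrays from primary cortical neuron cultures of C57Bl/6 mouse embryos at embryonic day 15. On day 5 of culture, 3 cultures received a lentivirus with a short hairpin RNA (shRNA) against Cugbp1, now named Celf1, an RNA-binding protein of splicing and mRNA decay, and 3 received a control shRNA lentivirus. All cultures of both groups were treated with AraC, which kills dividing cells, grew in a medium with BDNF, CNTF and serum, and were harvested on day 11. The labels do not say whether the 3 cultures of a group were separate preparations, so p-values measure the spread between these arrays, which may be technical. The labels do not give the hairpin sequences, and other effects of the hairpin cannot be told apart from those of lower Celf1.

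ERK is the last kinase of the cascade that runs from growth factor receptors through RAS, RAF and MEK, and in neurons it carries neurotrophin signals, such as those of BDNF, and activity signals to the nucleus. Its output is limited by inhibitors that it induces itself. The dual-specificity phosphatases remove the activating phosphates from ERK, Sprouty proteins act between receptors and RAF, and Spred proteins bring neurofibromin, which turns RAS off, to the membrane. The arrays measured transcripts and neither ERK phosphorylation nor protein.

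Celf1 fell in the Cugbp1 shRNA cultures. Its gene value, the log2 summary of its probe sets on an array, was 9.59, 9.40 and 9.33 in replicates 1 to 3 of Cugbp1 shRNA, against 10.85, 10.79 and 10.75 in the control replicates, a difference of -1.36 (standard error 0.099, limma adjusted p = 0.0124). Without control replicate 1 the adjusted p was 0.0308, and without each of the other arrays it was 0.0540 to 0.141 by limma. For replicates 2 and 3 of either group, the treatment text gives Tdp-43 as the hairpin's target, while the titles name Cugbp1 or control. Tardbp, which encodes TDP-43, differed by -0.035 (standard error 0.16, limma adjusted p = 0.961). The design text speaks of motor neurons where the samples are labelled as cortical neurons. Pan-neuronal markers averaged 11.85 to 11.90 on the Cugbp1 shRNA arrays and 11.95 to 12.04 on the control arrays. Motor neuron markers averaged 6.75 to 7.02 and 6.79 to 7.10, and Mnx1, a defining motor neuron factor, averaged 6.13 ± 0.25 and 6.17 ± 0.24 (SD, n = 3 each). Gene values were built only from probe sets with a mean of at least 5.73, the median over all probe sets. A marker level above 5.73 therefore does not show that the marker was expressed.

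Most of the ERK feedback inhibitors had a higher mean in the Cugbp1 shRNA cultures, by 1.51-fold at most, and the groups did not overlap for 4 of the 10. These 4 were Dusp6, Spry1, Spred1 and Spred3, with log2 differences of 0.34 to 0.59. Spred2 was the single gene of the 10 with a lower mean, by -0.20, and the other 5 differed by 0.0037 to 0.21. The median difference of the 10 genes was 0.16, beside -0.015 for all 16524 genes, and 9 of 10 had a higher mean, beside 46.5% of all genes. In bulk RNA, fewer cells of a type and less RNA per cell cannot be told apart. Limma called 1 of the 10, Dusp6, at an adjusted p under 0.05 over all genes, where it called 3.94% of all genes in either direction and 1.10% as higher. Leaving out each array in turn gave 0 or 1 call over all genes in place of 651, except 271 without control replicate 1. All 3 Cugbp1 shRNA arrays lay above all 3 control arrays for 10.8% of all genes and below them for 14.4%. Because the genes were chosen with this contrast in view, nothing is read from the counts against these shares.

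**Figure D1:**
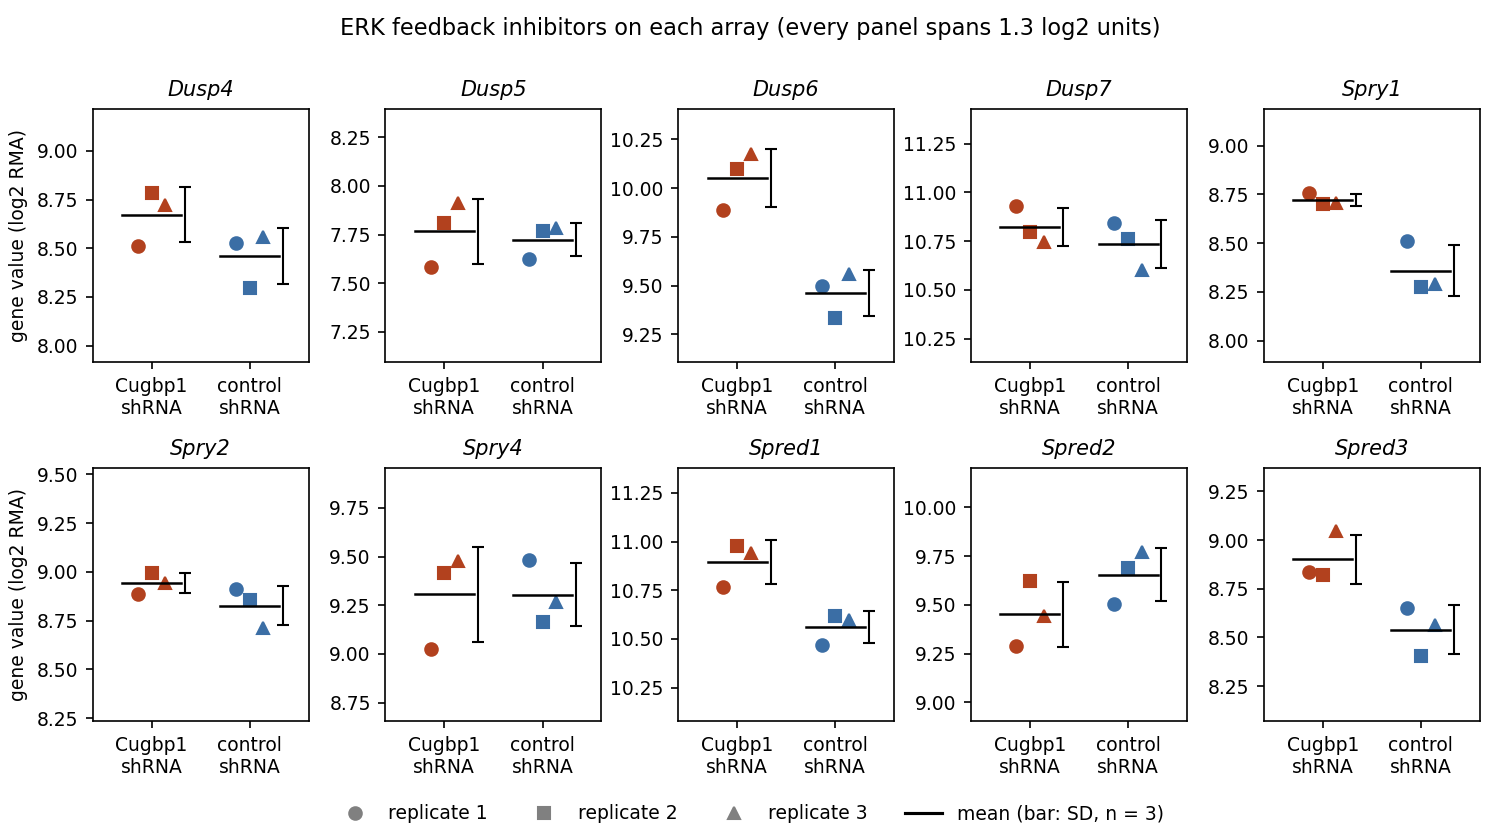
Gene value (log2 RMA) of each of the 10 ERK feedback inhibitors on the 3 Cugbp1 shRNA arrays (left) and the 3 control arrays (right), with symbols for the replicate number, black lines for group means and bars for the SD. The groups do not overlap for Dusp6, Spry1, Spred1 and Spred3, and Spred2 has the lower mean under Cugbp1 shRNA.

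Dusp6 and Dusp7 encode cytoplasmic phosphatases that act mainly on ERK. Dusp6 had gene values of 9.89, 10.10 and 10.17 in replicates 1 to 3 of Cugbp1 shRNA, against 9.50, 9.33 and 9.56 in the control replicates. Every Cugbp1 shRNA array was above every control array. The means were 10.05 ± 0.15 and 9.46 ± 0.12 (SD, n = 3 each), a log2 difference of 0.59 with a standard error of 0.11. Without any 1 of the 6 arrays Dusp6 was no longer called, at differences of 0.49 to 0.66. Dusp7 had 10.93, 10.80 and 10.74 under Cugbp1 shRNA, against 10.84, 10.76 and 10.60 in control. Its ranges overlapped, and the difference was 0.087 with a standard error of 0.10, which was 0.013 without Cugbp1 shRNA replicate 1 and 0.020 without control replicate 3.

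Dusp4 and Dusp5 encode nuclear phosphatases, of which Dusp5 acts mainly on ERK and Dusp4 also on other MAP kinases. Dusp4 had 8.51, 8.78 and 8.72 under Cugbp1 shRNA, against 8.53, 8.29 and 8.56 in control. Replicates 2 and 3 of Cugbp1 shRNA were its highest arrays, while replicate 1 lay among the controls. The difference was 0.21 with a standard error of 0.12, and it was 0.042 without Cugbp1 shRNA replicate 2 and 0.40 over replicates 2 and 3 only, a setting chosen after seeing the data. Dusp5 had 7.58, 7.81 and 7.91 under Cugbp1 shRNA, against 7.62, 7.77 and 7.78 in control. Its groups overlapped, at a difference of 0.042 with a standard error of 0.11, and its sign turned in 2 of 14 alternative settings. Of the 4 phosphatases, Dusp6 was thus the one whose arrays separated.

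The sequences before the start sites of Dusp6 and Dusp5 are shown because these phosphatases had the largest and smallest difference of the 4. Each is the 250 bases upstream of the RefSeq start, on the gene's strand in GRCm38.p6, at chr10:99262981-99263230 (plus strand) for Dusp6 and chr19:53528895-53529144 (plus strand) for Dusp5. Capitals mark matches to the motifs searched in both strands.
Dusp6: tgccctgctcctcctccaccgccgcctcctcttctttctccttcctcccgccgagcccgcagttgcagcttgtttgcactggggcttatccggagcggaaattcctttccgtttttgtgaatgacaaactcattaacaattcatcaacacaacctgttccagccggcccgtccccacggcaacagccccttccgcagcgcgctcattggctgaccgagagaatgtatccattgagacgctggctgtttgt
Dusp5: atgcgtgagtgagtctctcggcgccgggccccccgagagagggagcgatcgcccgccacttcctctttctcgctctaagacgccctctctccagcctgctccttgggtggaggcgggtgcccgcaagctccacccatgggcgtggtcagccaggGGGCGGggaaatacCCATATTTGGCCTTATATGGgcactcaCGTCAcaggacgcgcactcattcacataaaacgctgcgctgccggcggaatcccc
The motifs were the ETS site CCGGAA, the CRE TGACGTCA and its short core TGACG, which lies within the CRE, AP-1 TGANTCA, the GC box GGGCGG, the TATA box TATAAA and the CArG box, the site of the serum response factor. Dusp6 held none of them in these exact letters. The shorter GGAA within the ETS site, which the Dusp6 sequence does hold, was not searched. Dusp5 held a GC box that begins at position -96 from the start, adjoining CArG boxes at -82 and -72, and the short CRE core at -55 on the opposite strand. Over 32851 mouse promoters of 300 bases, 250 before and 50 after the start, 1.63% held a CArG box, 20.8% the short CRE core, 35.7% a GC box, 14.9% the ETS site CCGGAA, 7.81% AP-1, 13.6% the TATA box and 1.79% the full CRE. A match is a description of the letters and shows no binding.

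Sprouty proteins are induced by growth factors and bind adaptors of the receptor complex. Spry1 had 8.76, 8.70 and 8.70 under Cugbp1 shRNA, against 8.51, 8.28 and 8.29 in control. The 3 Cugbp1 shRNA arrays lay close together and above all controls, of which replicate 1 was the highest. The means were 8.72 ± 0.032 and 8.36 ± 0.13 (SD, n = 3 each), a log2 difference of 0.36 with a standard error of 0.097, or 1.29-fold. Spry2, which inhibits FGF receptor signalling and can prolong EGF receptor signalling, had 8.89, 8.99 and 8.95 under Cugbp1 shRNA, against 8.91, 8.85 and 8.71 in control. Its groups overlapped through control replicate 1, at a difference of 0.12 with a standard error of 0.092, which was 0.039 without control replicate 3 and 0.024 when probe sets were averaged rather than median polished. Spry4, an inhibitor acting upstream of RAF, had 9.03, 9.41 and 9.48 under Cugbp1 shRNA, against 9.48, 9.16 and 9.27 in control. Replicate 1 was its lowest array under Cugbp1 shRNA and its highest in control. The means differed by 0.0037 with a standard error of 0.15, and by 0.26 over replicates 2 and 3 only.

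Spred proteins share a C-terminal domain with Sprouty proteins and carry an EVH1 domain that, in Spred1, binds neurofibromin. Loss of SPRED1 in humans causes Legius syndrome, a disorder of overactive RAS. Spred1 had 10.77, 10.98 and 10.94 under Cugbp1 shRNA, against 10.47, 10.62 and 10.60 in control. All Cugbp1 shRNA arrays were above all controls, with means of 10.90 ± 0.11 and 10.56 ± 0.082 (SD, n = 3 each) and a log2 difference of 0.34 with a standard error of 0.098, or 1.26-fold. Spred3, the family member found mainly in brain, had 8.83, 8.82 and 9.05 under Cugbp1 shRNA, against 8.65, 8.40 and 8.57 in control. Its groups were apart as well, by 0.36 with a standard error of 0.11, or 1.28-fold. Spred2, a broadly expressed inhibitor of the same route, ran the other way, at 9.29, 9.62 and 9.44 under Cugbp1 shRNA, against 9.50, 9.69 and 9.77 in control. The ranges overlapped because replicate 2 of Cugbp1 shRNA lay above control replicate 1, and the difference was -0.20 with a standard error of 0.12. Whether Spred1 and Spred2 differ from each other in their response was not tested.

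The Spred1 and Spred2 upstream sequences are shown because these relatives differed in sign. They are the 250 bases before the RefSeq start in GRCm38.p6, at chr2:117120821-117121070 (plus strand) and chr11:19924192-19924441 (plus strand), with the same motifs in capitals.
Spred1: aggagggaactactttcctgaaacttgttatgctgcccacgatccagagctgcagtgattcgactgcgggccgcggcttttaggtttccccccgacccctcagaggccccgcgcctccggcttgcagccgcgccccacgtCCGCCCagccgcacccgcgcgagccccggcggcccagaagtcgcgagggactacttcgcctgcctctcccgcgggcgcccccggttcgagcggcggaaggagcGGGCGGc
Spred2: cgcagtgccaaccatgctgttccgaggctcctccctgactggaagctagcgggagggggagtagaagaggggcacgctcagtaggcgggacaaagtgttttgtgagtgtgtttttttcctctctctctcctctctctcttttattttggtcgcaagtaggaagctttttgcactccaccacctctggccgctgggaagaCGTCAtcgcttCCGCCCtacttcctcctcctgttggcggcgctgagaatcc
Spred1 held GC boxes that begin at positions -110 and -7, and 1 more lies after the start. Spred2 held the short CRE core at -51 and a GC box at -40, both on the opposite strand. Among the other genes, the 300-base promoter of Spry1 held 1 GC box, that of Dusp7 1 GC box, that of Spred3 3 GC boxes and that of Spry2 the ETS site CCGGAA, which begins at position 34 after its start. The 8 promoters in the RefSeq table, without Dusp4 and Spry4, held 55.0% to 78.7% G and C, beside a median of 52.7% over all 32851. None of the motifs searched was held by all of Dusp6, Spry1, Spred1 and Spred3, as Dusp6 held none of them.

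Arrays with the same replicate number deviated together, so the same-numbered arrays were also set against each other. Dusp6 differed by 0.39, 0.77 and 0.62 in pairs 1 to 3, and Spry1 by 0.25, 0.42 and 0.42. Spred1 differed by 0.30, 0.36 and 0.35, and Spred3 by 0.19, 0.42 and 0.48. All 3 pairs were thus higher under Cugbp1 shRNA for these 4 genes, and they were so for Dusp7 too, at 0.085, 0.037 and 0.14. All 3 pairs were lower for Spred2, at -0.21, -0.069 and -0.33. The background shares were 25.9% of genes with all pairs higher and 31.6% with all pairs lower. With the replicate number as a block, limma called 4 of the 10 genes, all of them higher, namely Dusp6, Spry1, Spred1 and Spred3, where it called 23.2% of all genes in either direction and 9.31% as higher.

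Replicate 1 gave the smallest of the 3 pair differences for 8 of the 10 genes, beside 41% of all genes. Dusp4, Dusp5, Spry2 and Spry4 had a negative difference in pair 1, of -0.012, -0.042, -0.022 and -0.45, and positive ones in pairs 2 and 3. On the Cugbp1 shRNA arrays 7, 9 and 9 of the 10 genes in replicates 1 to 3 were above the control mean, against 7, 5 and 6 on the control arrays. The median difference of the 10 genes was 0.074 without Cugbp1 shRNA replicate 2 and 0.31 over replicates 2 and 3 only.

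**Figure D2:**
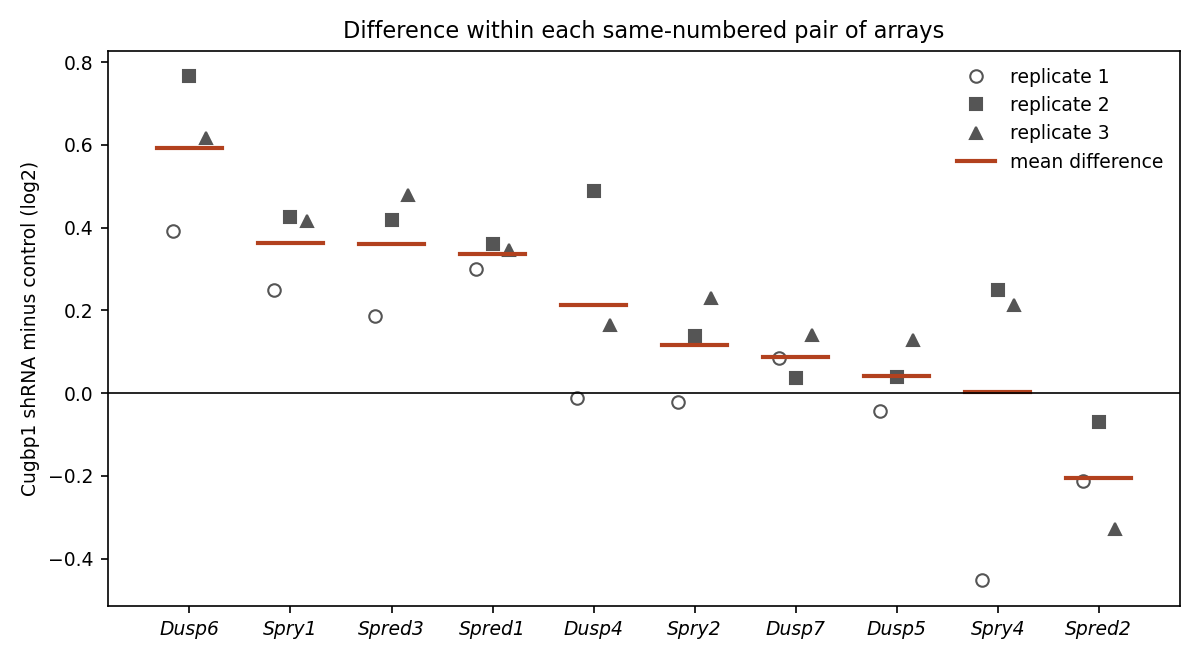
Difference in gene value (Cugbp1 shRNA minus control, log2) for each of the 10 genes within the 3 same-numbered pairs of arrays, with open circles for replicate 1 and a red line for the mean difference. The replicate 1 difference is the lowest for 8 of 10 genes, and all 3 differences are above 0 for Dusp6, Spry1, Spred3, Spred1 and Dusp7.

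An exon array measures a gene through several probe sets, which show whether a gene value stands for most of them. The probe sets were not placed on exons, so whether the whole transcript changed was not tested. Of the 114 probe sets of the 10 genes, 109 passed the filter on low signal. Among the 109, 77 had a higher mean under Cugbp1 shRNA and 29 had non-overlapping groups in that direction, while 1 was apart in the lower direction. Of all 249557 kept single-gene probe sets, 49.4% had a higher mean, 8.04% were apart and higher, and 10.0% were apart and lower. Of the 29, 6 belonged to Dusp6, 5 to Spry1, 9 to Spred1 and 7 to Spred3. Probe sets of a gene are repeated readings on the same 6 arrays. The genes were also chosen with this contrast in view, so nothing is read from these counts against the shares.

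Dusp6, the gene with the clearest separation, was so in all 6 of its probe sets, at differences of 0.41 to 0.76. Probe set 4806403, its largest, read 9.64, 9.78 and 9.74 under Cugbp1 shRNA, against 9.17, 9.08 and 8.65 in control. Probe set 4578453, its smallest, read 8.53, 8.89 and 8.66, against 8.25, 8.27 and 8.34 in control, so the groups were apart there too. All 11 Spry1 probe sets had a higher mean, 5 of them with groups apart, and their differences ran from 0.11 to 0.76. The largest, 4782472, read 9.23, 9.39 and 9.29, against 9.04, 8.38 and 8.21 in control. The smallest, 4829864, overlapped between the groups.

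All 18 kept Spred1 probe sets had a higher mean under Cugbp1 shRNA, 9 with groups apart, at 0.049 to 0.55. Its largest, 5596841, overlapped between the groups, at 7.67, 7.47 and 7.49 against 7.60, 6.64 and 6.73 in control. Its smallest, 5276676, overlapped too. Of the 19 kept Spred3 probe sets 18 had a higher mean and 7 were apart. Probe set 5579329 had the largest difference of the 109, 0.78, with 10.52, 10.59 and 10.53 under Cugbp1 shRNA, against 10.14, 9.60 and 9.56 in control. The exception, 5524358, read 5.83, 6.06 and 6.13 against 5.75, 6.998 and 6.60 in control, a difference of -0.44, and its mean over all arrays of 6.23 lies near the filter.

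All 16 kept Spred2 probe sets had a lower mean under Cugbp1 shRNA, and 1 was apart. The median difference over them was -0.19. Its largest, 4592326, differed by -0.80, with 6.64, 7.39 and 6.87 under Cugbp1 shRNA, against 7.16, 8.66 and 7.47 in control, so the groups overlapped. Its smallest, 5104258, differed by -0.0017. All 9 Dusp4 probe sets had a higher mean, at 0.11 (probe set 4352292) to 0.34 (4834575), and 1 was apart. Dusp5 had 4 of 9 kept probe sets with a higher mean, Dusp7 6 of 11, Spry2 3 of 5 and Spry4 2 of 5, so direction within these genes varied by probe set. The differences ran from -0.13 (probe set 5307466) to 0.25 (5390993) for Dusp5 and from -0.076 (5200073) to 0.18 (4307891) for Dusp7. They ran from -0.22 (4777088) to 0.21 (5518671) for Spry2 and from -0.099 (5217819) to 0.22 (4832363) for Spry4.

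**Figure D3:**
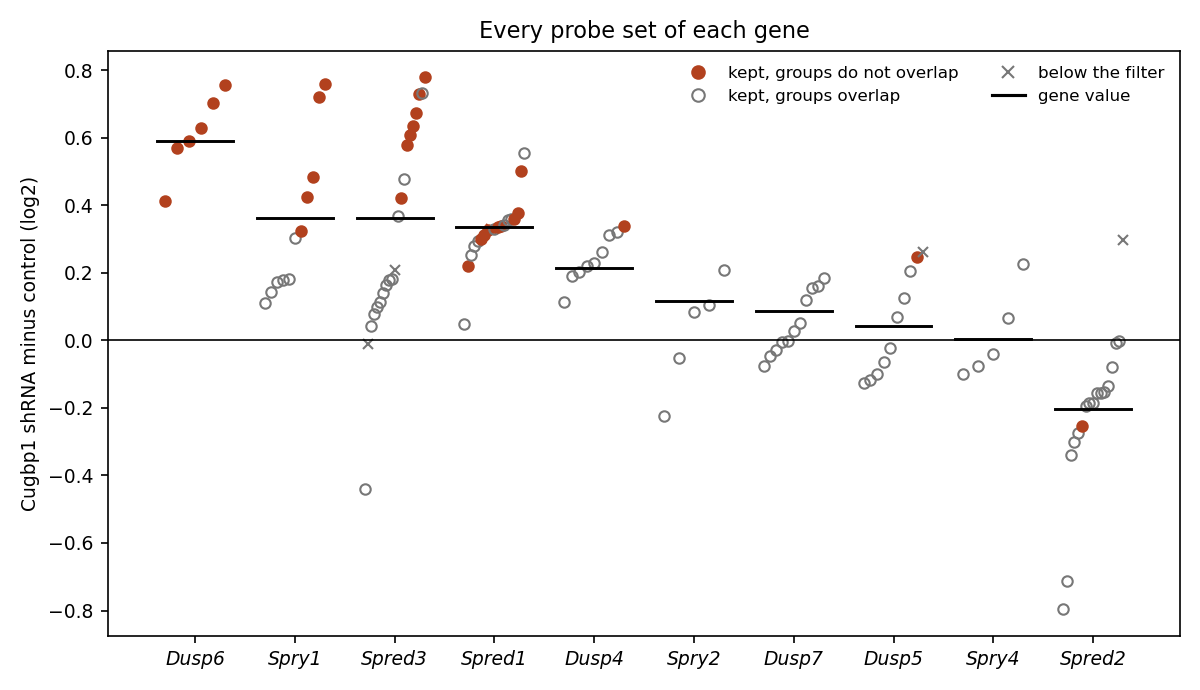
Difference in log2 signal (Cugbp1 shRNA minus control) of every probe set of the 10 genes, with the black line at the gene value, filled circles where the groups did not overlap and crosses below the filter on low signal. The 6 Dusp6 probe sets are all filled and the 16 kept Spred2 probe sets all lie below 0.

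The rest of the ERK pathway gave 8 calls among 137 tested genes, 5 higher and 3 lower, at a median difference of -0.00036. Over all 16524 genes limma called 3.94% in either direction and 1.10% as higher, at a median difference of -0.015. The lists were written with earlier results of these data known. The list of receptors and ligands upstream of ERK also holds genes that need not act there, such as Vgf. Of its 25 tested genes, 11 had a higher and 14 a lower mean, and 1 fell. This was Pdgfrb, a PDGF receptor of mural cells, with 7.79, 7.70 and 7.37 under Cugbp1 shRNA, against 8.42, 8.67 and 8.18 in control (difference -0.80, standard error 0.16, limma adjusted p = 0.0415). Vgf, a neuropeptide precursor induced by neurotrophins, differed by 0.42 (limma adjusted p = 0.109), Fgf2 by -0.37 (limma adjusted p = 0.168) and Cntfr, the receptor of the CNTF in the medium, by -0.23 (limma adjusted p = 0.252).

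Of the 26 tested genes of the RAS, RAF, MEK and ERK cascade, 1 rose and 1 fell. Mknk2, a kinase that ERK activates, had 10.46, 10.60 and 10.59 under Cugbp1 shRNA, against 10.03, 10.10 and 9.98 in control (difference 0.51, standard error 0.088, limma adjusted p = 0.0300). Frs3, an adaptor of FGF and neurotrophin receptors, had 8.92, 8.81 and 9.03 under Cugbp1 shRNA, against 9.44, 9.52 and 9.50 in control (difference -0.56, standard error 0.092, limma adjusted p = 0.0267). Its relative Frs2 differed by 0.45 (limma adjusted p = 0.0670) and Rps6ka1, a kinase downstream of ERK, by -0.42 (limma adjusted p = 0.0760).

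Among other inhibitors, the 26 tested negative regulators of receptor, RAS and ERK signalling gave 0 calls, with 5 at an unadjusted p under 0.05 by limma and 7 called with the replicate block. Over all 16524 genes, 3105 were at an unadjusted p under 0.05 by limma, and the replicate block called 3827. Ptpn5, the neuronal ERK phosphatase STEP, differed by 0.51 (limma adjusted p = 0.0575), the receptor inhibitor Lrig1 by -0.63 (limma adjusted p = 0.0814), the PP2A subunit Ppp2r2a by -0.40 (limma adjusted p = 0.0670) and the adaptor Sh2b3 by -0.37 (limma adjusted p = 0.0732). Of the 12 other dual-specificity phosphatases, 1 rose and 1 fell. Dusp16, a phosphatase of JNK and p38, had 8.47, 8.75 and 8.63 under Cugbp1 shRNA, against 7.97, 7.91 and 7.79 in control (difference 0.73, standard error 0.11, limma adjusted p = 0.0199). Dusp22, an atypical phosphatase linked to JNK, had 9.29, 9.45 and 9.41, against 9.86, 10.21 and 10.21 in control (difference -0.71, standard error 0.12, limma adjusted p = 0.0300). Dusp1, which acts on several MAP kinases and is an immediate early gene, differed by 0.46 (limma adjusted p = 0.141) and Dusp26 by -0.38 (limma adjusted p = 0.0696).

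The 34 genes listed as transcripts induced by ERK include activity-induced genes, and whether ERK drove any of them here was not tested. Of the 34, 21 had a higher and 13 a lower mean, where 46.5% of all genes had a higher one. Limma called 2 higher and 0 lower, beside 3.94% of all genes in either direction. At an unadjusted p under 0.05 by limma were 9 of the 34, and the median difference was 0.13. With the replicate block 11 were called higher and 0 lower. The groups were apart and higher for 7 of the 34, and apart and lower for 3. Over all genes these shares were 10.8% and 14.4%. Of all 16524 genes, 3105 were at an unadjusted p under 0.05 by limma, and the block called 1539 higher and 2288 lower. Npas4, an activity-induced transcription factor of neurons, had 9.56, 9.56 and 9.38 under Cugbp1 shRNA, against 8.11, 8.56 and 8.73 in control (difference 1.04, standard error 0.16, limma adjusted p = 0.0254). Epha4, an ephrin receptor, had 11.10, 11.07 and 10.95, against 10.49, 10.42 and 10.23 in control (difference 0.66, standard error 0.10, limma adjusted p = 0.0239). Fos had 7.46, 7.57 and 7.50, against 6.42, 6.78 and 7.18 in control, a difference of 0.72 (limma adjusted p = 0.0752), and Fosb differed by 0.71 (limma adjusted p = 0.0807). For both Npas4 and Fos the Cugbp1 shRNA arrays lay above all controls, and control replicate 3 was the nearest of them.

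The list of 14 ETS factors and SRF partners also held other transcription regulators, and 1 of the 14 rose. Erf, an ETS repressor that ERK sends out of the nucleus, had 8.66, 8.48 and 8.65 under Cugbp1 shRNA, against 8.15, 7.79 and 8.10 in control (difference 0.58, standard error 0.12, limma adjusted p = 0.0473). Elk4 differed by 0.33 (limma adjusted p = 0.0814), Gabpa by 0.41 (limma adjusted p = 0.105) and Etv3 by 0.19 (limma adjusted p = 0.312). With the replicate block 26 of the 137 pathway genes were called higher and 15 lower, beside 1539 and 2288 of all 16524 genes. Without control replicate 1 the fit without the block called 6 of the 137, and without any of the other 5 arrays 0, with 23 to 34 at an unadjusted p under 0.05 by limma. In those 5 fits, 2008 to 2759 of all genes were at an unadjusted p under 0.05 by limma.

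**Figure D4:**
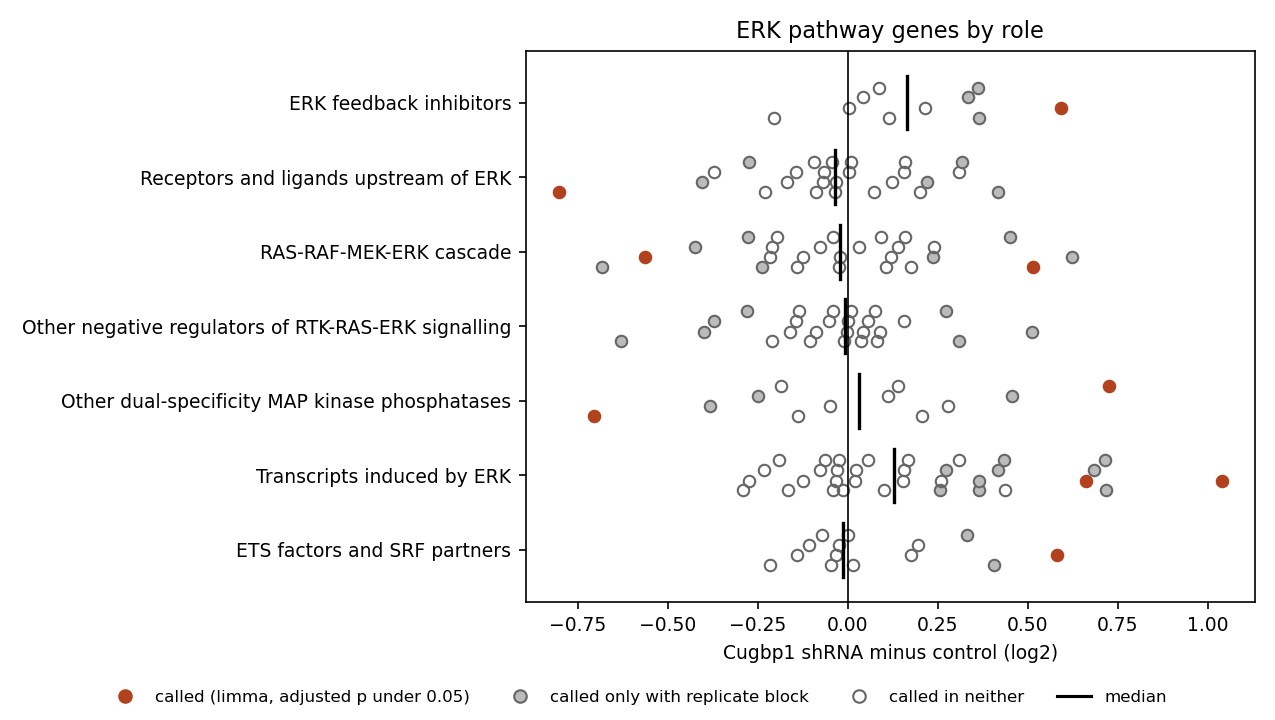
Difference in gene value (Cugbp1 shRNA minus control, log2) for the 10 ERK feedback inhibitors and the 6 other lists of pathway genes by role, with red for genes called by limma, grey fill for genes called only with the replicate block and a black line for the median. The median is 0.16 for the feedback inhibitors and 0.13 for the list of transcripts induced by ERK, and the other 5 medians lie between -0.037 and 0.031.

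Dusp6 was also set against all other tested genes by the root mean square difference of the values on the 6 arrays, each gene centred on its mean. The 5 closest genes were Cdk14 at 0.052, Atg14 and Tmem222 at 0.053, and Mgst3 and Slc9a9 at 0.063. Each of these 5 was called higher, at log2 differences of 0.50 to 0.68 and limma adjusted p-values of 0.0282 to 0.0384. The closest of the feedback inhibitors was Spred3 at 0.139, then Spred1 at 0.164, Spry1 at 0.176 and Dusp4 at 0.194, and the farthest was Spred2 at 0.417. The measure describes likeness over 6 arrays and ranks genes by a contrast they share.

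Marker lists of the cell types such cultures can hold are given beside these values, and their part in the results was not tested. For comparison with the counts below, 3105 of all 16524 genes were at an unadjusted p under 0.05 by limma. The replicate block called 1539 of all genes higher and 2288 lower. All 9 tested markers of cortical glutamatergic neurons had a lower mean under Cugbp1 shRNA, as did 11 of 13 pan-neuronal markers. Of all 16524 genes, 8838 had a lower mean. The 9 glutamatergic markers gave 0 calls, with 3 at an unadjusted p under 0.05 by limma and 4 called lower with the replicate block. Their mean level was 10.31 to 10.35 on the Cugbp1 shRNA arrays and 10.52 to 10.63 on the control arrays. Of 8 markers of GABAergic neurons 3 had a higher and 5 a lower mean, at a median difference of -0.051, and the replicate block called 2 higher and 1 lower. Without the block 1 rose, Gad2, a GABA-making enzyme, by 0.77 (standard error 0.11, limma adjusted p = 0.0201). Of 11 astrocyte markers 0 were called, with 2 at an unadjusted p under 0.05 by limma and 3 called lower, 0 higher, with the replicate block, at mean levels of 9.41 to 9.69 under Cugbp1 shRNA and 9.68 to 9.70 in control.

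The 9 oligodendrocyte lineage markers gave 0 calls and 0 at an unadjusted p under 0.05 by limma, at 9.40 to 9.67 under Cugbp1 shRNA and 9.35 to 9.74 in control. The 9 microglia markers likewise gave 0 and 0, at 6.57 to 6.90 and 6.66 to 6.95, with 1 called lower by the replicate block. The 9 markers of neural progenitors and dividing cells also gave 0 and 0, at 8.64 to 8.96 and 8.60 to 8.94, with 3 called higher and 1 lower by the replicate block. Pdgfrb was the single call among the 9 endothelial and mural markers, and among 7 fibroblast and meninges markers Thbs1, a matrix protein, fell by 0.72 (standard error 0.15, limma adjusted p = 0.0444).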

How the data were processed

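Per the submitters' processing notes and labels, the deposited table holds log2 RMA values per probe set, made by the authors in Affymetrix Expression Console (all-exon analysis), with mm9 as the build. All quantities here were computed from it. Of 1195555 probe sets, 597778 with a mean of at least the median, 5.73, were kept. The annotation gave 316997 probe sets 1 gene symbol, 6571 several and 871987 none, and only the first kind was used. Symbols were updated through RefSeq (4213 changed). A gene value is the median polish of at least 3 kept probe sets. Differences and standard errors come from limma 3.58.1 (R 4.3.3) without covariates, with Benjamini-Hochberg adjustment over 16524 genes and a threshold of 0.05. The fit was tested on simulated data.

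The 10 genes and all lists were chosen with earlier results of these data known. Text names all 10 genes, Celf1, every called list gene, further pathway genes of smallest p up to 4 a list, the 5 genes most like Dusp6 and, per feedback inhibitor, the probe sets of largest and smallest difference. The arrays without a number in their titles were taken as replicate 1. Same-numbered arrays' deviations from the group means correlated at 0.763, 0.504 and 0.715, all over 0.1, so numbers were taken to pair the arrays. Replicate 1 arrays correlated at -0.701 to -0.360 with arrays of replicates 2 and 3 in the other group. Replicates 2 and 3 correlated with each other across the groups at 0.081 and 0.160. Deviations within a group sum to 0, which by itself pushes the values for unlike numbers down. The value of 0.160, for Cugbp1 shRNA replicate 3 and control replicate 2, is also over 0.1. The 3 arrays per group limit the precision. Alternatives were the block, quantile and median scaling, 3 changes of filter or summary, another variance model, each array left out, and replicates 2 and 3 only (added after seeing the data).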

Additional observations from a re-analysis of the deposited data

How the results depend on the processing

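Of 14 alternative settings, 1 of them chosen after seeing the data, all kept 8 or 9 of the 10 feedback inhibitors at a higher mean. With the replicate block limma called 3827 genes, 4 of the 10 and 41 of the 137 pathway genes, against 651, 1 and 8 without it, and Celf1 kept its call. The 75th percentile filter called 1039 genes and 14 pathway genes, the trend and robust variances 1089 and 13, and replicates 2 and 3 only 677 and 13. Leaving out each array gave 0 to 271 genes (2008 to 3247 at an unadjusted p under 0.05 by limma), 0 of the 10 genes in all 6 cases, 0 to 6 pathway genes, and -1.43 to -1.32 for Celf1, called only without control replicate 1. Leaving out an array leaves fewer samples for the same fit. Dusp5 ranged from -0.010 to 0.12 and Spry4 from -0.091 to 0.26, so their signs were not stable. The lowest and highest values were 0.49 and 0.67 for Dusp6, 0.26 and 0.38 for Spry1, 0.25 and 0.38 for Spred1, 0.28 and 0.47 for Spred3, -0.25 and -0.11 for Spred2, 0.042 and 0.40 for Dusp4, 0.013 and 0.11 for Dusp7, and 0.024 and 0.18 for Spry2. The 3 arrays per group limit the precision to the standard errors given.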
